A study of Sus scrofa with 8 samples.

Results

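The chaperonins are ring-shaped folding machines that enclose an unfolded protein and release it folded. The 10 genes described here were named with earlier results of these data known. They comprised HSPD1 (the HSP60 ring of mitochondria), HSPE1 (HSP10, the lid of that ring), HSPA9 (mortalin, the mitochondrial HSP70) and 7 subunits of TRiC, the chaperonin ring of the cytosol (TCP1, CCT2, CCT3, CCT4, CCT5, CCT7 and CCT8). On the porcine array 8 of the 10 genes had at least 1 probe set named by the platform's annotation, which were all 3 mitochondrial genes and 5 of the 7 TRiC genes. No probe set was named CCT3 or CCT5. The 8 genes had 11 probe sets out of 23999 in the table, and 10 of the 11 lay above the filter on low levels. HSPA9 belongs to the HSP70 family and forms no ring, so it is called here a mitochondrial member and not a chaperonin subunit.

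Proteins enter mitochondria unfolded, are pulled through the inner membrane by HSPA9, and many are then folded inside the HSPD1 ring under the HSPE1 lid. TRiC folds newly made actin and tubulin, which it receives in part from the co-chaperone prefoldin, and its subunits are different gene products that each hold a fixed place in the ring. Both systems serve a muscle fibre, which is rich in mitochondria and in actin, and HSPD1 and HSPE1 are also known as stress-inducible genes.

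RNA came from a muscle of the hind limb, the biceps femoris, in female domestic piglets in a model of the limb weakness that follows intensive care, called acute quadriplegic myopathy in the labels of both groups. Sample titles placed 4 arrays in the control group and 4 in the corticosteroid group. According to the labels, all piglets were immobilised under isoflurane (0.8 to 1.3% end-tidal) with morphine and ketamine as needed, ventilated for 5 days, held at a core temperature of 38.5 to 40 °C, and given crystalloid fluid, glucose, streptomycin and bensylpenicillin. The corticosteroid piglets also received bolus doses of hydrocortisone, and their protocol describes 8 piglets weighing 26.4 kg on average. The control protocol describes 4 piglets weighing 25.5 kg on average and adds Escherichia coli endotoxin at 36 µg/kg/h for 1 h, although the source label of those samples gives sedation and ventilation only. The series' design text also mentions pancuronium, which blocks the neuromuscular junction, and does not tie it to a group. An effect of endotoxin and one of hydrocortisone therefore cannot be told apart here. The labels name no batch. A difference between the groups in how the arrays were run or processed could not be told apart from treatment either. No untreated animals are among these samples. Whether every array stands for a separate piglet is not stated, and the p-values reflect only how far these samples spread, which may be technical.

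The values are log2 expression levels, and all are given on that scale. Array medians ran from 5.873 to 5.972. The median correlation of an array with the others, across probe sets, ran from 0.952 for control array 2 and 0.968 for corticosteroid array 4 to 0.980, so those 2 arrays stood furthest from the rest. The corticosteroid columns appeared to be in another row order than the control columns, and their values were re-assigned to the probe IDs sorted as text with the full stops ignored. This moved 9389 of 23999 probe sets. Of the members, HSPD1, HSPE1, CCT2 and CCT7 lay in rows that the re-assignment moved, and HSPA9, TCP1, CCT8 and the leading CCT4 probe set did not. In the table as deposited the HSPD1 row held a corticosteroid mean of 4.13 against a control mean of 12.01, and after re-assignment the mean was 11.10. The HSPE1 row held 5.86 as deposited and 11.61 after re-assignment, against 12.10 in controls. CCT6A, another TRiC subunit that was not among the 10 genes, gives an example of the shift, which is no test of the order. The row of its probe set Ssc.11348.1.A1_at held a corticosteroid mean of 10.18 as deposited, which is the mean that the re-assignment gave to the next CCT6A probe set, Ssc.11348.1.A2_at. Of 10 skeletal muscle markers listed, 6 were measured and all 6 lay above the filter, with creatine kinase (CKM) at 13.93 ± 0.06 (SD, n = 4) in controls and 14.03 ± 0.03 (SD, n = 4) with corticosteroid.

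All 8 measured genes had lower means with corticosteroid, and none passed the test over all probe sets. The median log2 difference of the 8 was -0.35, against 0.03 over the 5406 genes tested, and a mean below that of controls was seen in 46% of those genes. At an unadjusted p under 0.05 in limma, 4 of the 8 were lower (HSPD1, HSPE1, CCT2 and CCT8), where 3.9% of the genes tested were lower at that level. At an adjusted p under 0.05, 0 of 8 members and 0% of the 14361 probe sets tested were called (1363 had an unadjusted p under 0.05), and the adjusted p-values of the members ran from 0.469 to 0.811. The levels of the members varied together from array to array, so the count of 4 is not one of independent genes. It was 2 without control replicate 3, without corticosteroid replicate 3 or without corticosteroid replicate 4, and 6 without corticosteroid replicate 1. It was also 2 without both control array 2 and corticosteroid array 4. In a piece of muscle, fewer cells of a type and less RNA per cell cannot be told apart.

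HSPD1, measured by Ssc.6719.1.A1_at, showed the widest gap of the 8. Its level was 12.07, 12.13, 12.24 and 11.59 on control arrays 1 to 4 and 11.51, 11.41, 10.63 and 10.83 on corticosteroid arrays 1 to 4. Every corticosteroid array lay below every control array, although control array 4 and corticosteroid array 1 nearly met. The control mean was 12.01 ± 0.29 and the corticosteroid mean 11.10 ± 0.43 (SD, n = 4 each). The difference was -0.91 (SE 0.23, 95% interval -1.43 to -0.39), a linear level 0.532 times that of controls (limma adjusted p = 0.469). By p-value HSPD1 ranked 77 of the 14361 tested. Leaving out single arrays gave differences from -1.05 to -0.76.

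HSPE1, the partner that caps the HSPD1 ring, was measured by Ssc.1241.1.S1_at and showed the same order of groups with a smaller gap. In the current porcine annotation the genes are direct neighbours, and in mammals they are known to be transcribed in opposite directions from a shared promoter region. The level was 12.13, 12.07, 12.29 and 11.92 on the control arrays and 11.79, 11.84, 11.19 and 11.62 on the corticosteroid arrays. The groups did not overlap, and corticosteroid array 3 was again the lowest. The difference was -0.49 (SE 0.17, 95% interval -0.87 to -0.12), or 0.710 times the control level (limma adjusted p = 0.479). The groups did not overlap, with corticosteroid lower, for 3 of the 8 members (HSPD1, HSPE1 and CCT7), against 2.02% of the genes tested. All 3 lie in rows that the re-assignment moved, and the groups overlapped for every member whose leading probe set was not moved.

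**Figure D1:**
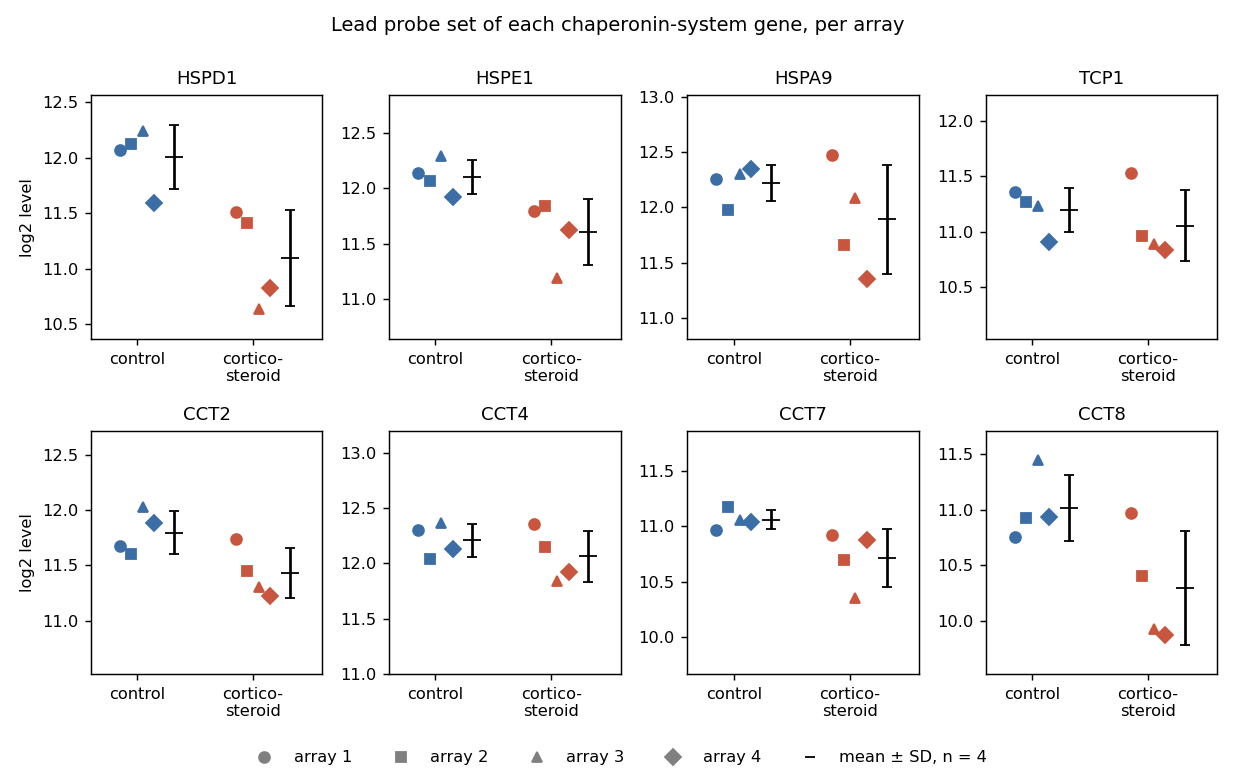
Log2 level of the leading probe set of each gene on every array, controls in blue and corticosteroid in red, with the marker shape giving the array number and the black bar the mean ± SD (n = 4); each panel spans the same range of log2 units. HSPD1, HSPE1 and CCT7 have no overlap between groups, and corticosteroid array 1 lies within or near the control range for most genes.

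HSPA9 pulls proteins across the inner mitochondrial membrane and gave differences of unequal size on its 3 probe sets. Its leading probe set, Ssc.31057.1.A1_s_at, read 12.26, 11.98, 12.30 and 12.34 in controls and 12.47, 11.66, 12.08 and 11.35 with corticosteroid. The groups overlapped, since corticosteroid array 1 was the highest of all 8 arrays and corticosteroid array 3 lay above control array 2. The difference was -0.33 (SE 0.23, 95% interval -0.84 to 0.18, limma adjusted p = 0.627). It was -0.15 without corticosteroid replicate 4 and -0.52 without corticosteroid replicate 1. The other 2 HSPA9 probe sets gave larger differences on the same arrays. Ssc.6798.1.S1_at differed by -0.62 (SE 0.24, limma adjusted p = 0.482) and Ssc.6798.2.S1_at by -0.54 (SE 0.27, adjusted p = 0.551). All 3 probe sets had their lowest value on corticosteroid array 4, and the groups overlapped for each. With its probe sets averaged HSPA9 differed by -0.50, close to HSPE1.

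Among the 5 TRiC members measured, CCT8 had the widest gap and TCP1 and CCT4 the narrowest. CCT6A, a TRiC subunit outside the 10 genes, had a wider gap than CCT8, at -0.91. TRiC needs all its subunits in one ring, and each of those measured had a lower mean with corticosteroid. The median difference of the 5 was -0.35, with a range from -0.73 to -0.14, and 2 of the 5 had an unadjusted p under 0.05 in limma. That count was 0 without control replicate 3, corticosteroid replicate 3 or corticosteroid replicate 4, and 3 without corticosteroid replicate 1. None passed over all probe sets.

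CCT8, the theta subunit (Ssc.3259.1.S1_at), read 10.75, 10.92, 11.45 and 10.94 on the control arrays and 10.97, 10.40, 9.92 and 9.87 on the corticosteroid arrays. Corticosteroid array 1 lay among the controls and the other 3 lay below all of them. The difference was -0.73 (SE 0.27, 95% interval -1.33 to -0.12, limma adjusted p = 0.479). CCT2, the beta subunit (Ssc.2633.1.A1_at), read 11.67, 11.60, 12.03 and 11.88 in controls and 11.74, 11.45, 11.31 and 11.23 with corticosteroid. It had the same arrangement of arrays, at -0.36 (SE 0.16, 95% interval -0.72 to -0.01, limma adjusted p = 0.524).

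CCT7, the eta subunit (Ssc.11002.1.S1_at), had the tightest controls, at 10.97, 11.17, 11.06 and 11.04. The corticosteroid arrays read 10.92, 10.70, 10.36 and 10.88, all below them. Corticosteroid arrays 1 and 4 lay just under the lowest control, and array 3 was far lower. The difference was -0.35 (SE 0.16, 95% interval -0.71 to 0.02, limma adjusted p = 0.536), and -0.23 without corticosteroid replicate 3.

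TCP1, the alpha subunit that gave the complex its name (Ssc.16956.1.A1_at), read 11.36, 11.27, 11.23 and 10.91 in controls and 11.53, 10.96, 10.89 and 10.84 with corticosteroid. Corticosteroid array 1 was the highest of the 8 and array 4 the lowest, so the groups overlapped widely. The difference was -0.14 (SE 0.19, 95% interval -0.57 to 0.29, limma adjusted p = 0.811). It ran from -0.30 without corticosteroid replicate 1 to -0.07 without corticosteroid replicate 4. CCT4, the delta subunit (Ssc.16807.1.A1_at), read 12.30, 12.04, 12.36 and 12.13 in controls and 12.35, 12.15, 11.84 and 11.92 with corticosteroid. Corticosteroid arrays 1 and 2 lay within the control range. The difference was -0.14 (SE 0.15, 95% interval -0.47 to 0.19, limma adjusted p = 0.737), -0.07 without corticosteroid replicate 3 and -0.24 without corticosteroid replicate 1. The intervals of TCP1 and CCT4 take in the differences of CCT2 and CCT7 and not that of CCT8. The second CCT4 probe set, Ssc.7110.1.A1_at, lay below the filter level of 5.27, with means of 4.01 ± 0.24 (SD, n = 4) in controls and 4.19 ± 0.17 (SD, n = 4) with corticosteroid (exact two-sided permutation p = 0.371).

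CCT6A, the zeta subunit, was not among the 10 genes, and the gene ID the platform gives for it is not in the current gene table. Its leading probe set read 11.26, 10.83, 11.50 and 10.78 in controls and 10.93, 10.86, 9.13 and 9.78 with corticosteroid. Corticosteroid arrays 1 and 2 lay within the control range and arrays 3 and 4 well below its lowest value. The difference was -0.91 (SE 0.39, 95% interval -1.80 to -0.03, limma adjusted p = 0.524), and -0.57 without corticosteroid replicate 3. A second probe set gave -0.83 (SE 0.31, limma adjusted p = 0.482), and the last lay below the filter.

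**Figure D2:**
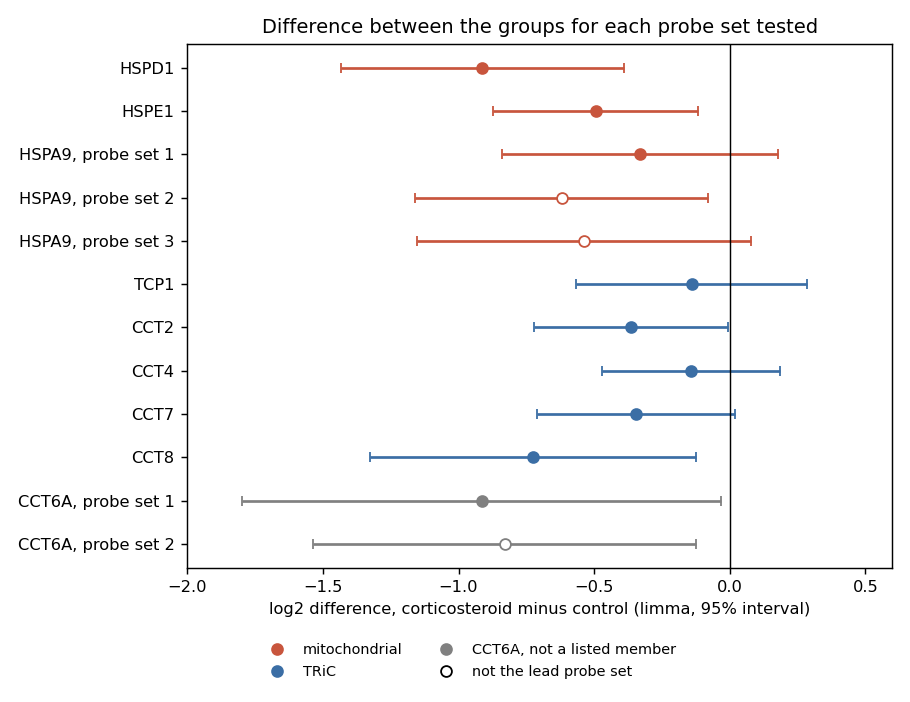
Log2 difference (corticosteroid minus control) with its 95% interval from limma for each probe set above the filter, mitochondrial members in red, TRiC members in blue and CCT6A in grey; open circles are probe sets that do not lead their gene. All points lie below 0, from -0.91 to -0.14, and the intervals of HSPA9 (probe sets 1 and 3), TCP1, CCT4 and CCT7 cross 0.

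The average difference was larger for the 3 mitochondrial members than for the 5 TRiC subunits. The ranges of single genes overlapped, with CCT8 beyond HSPE1 and HSPA9. HSPE1 (-0.49) and HSPA9 (-0.33) lay within the TRiC range of -0.73 to -0.14, and only HSPD1 (-0.91) lay beyond it. CCT6A, at -0.91, was not counted among the 5. On each array the levels of a gene were centred on that gene's mean over the 8 arrays and averaged over the set. The mean of HSPD1, HSPE1 and HSPA9 was 0.33, 0.24, 0.46 and 0.13 on control arrays 1 to 4 and 0.10, -0.19, -0.52 and -0.55 on corticosteroid arrays 1 to 4. The mean of the 5 TRiC subunits was 0.13, 0.12, 0.34 and 0.10 on the control arrays and 0.22, -0.15, -0.42 and -0.34 on the corticosteroid arrays. The TRiC means overlapped between groups because of corticosteroid array 1, which was second only to control array 3. The difference between the groups was -0.58 for the mitochondrial mean and -0.34 for the TRiC mean.

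Subtracting the TRiC mean from the mitochondrial mean within each array left 0.20, 0.12, 0.11 and 0.03 on the control arrays and -0.12, -0.03, -0.10 and -0.22 on the corticosteroid arrays. All control arrays were above 0 and all corticosteroid arrays below it. The group means were 0.12 ± 0.07 (SD, n = 4) and -0.12 ± 0.08 (SD, n = 4), a difference of -0.24, which ran from -0.26 to -0.20 when single arrays were left out. No p is given for these means, because the genes were chosen with earlier results of these data known. The separation of the groups around 0 depends on HSPD1, the member with the widest gap. From HSPE1 and HSPA9 alone, less the TRiC mean, the arrays of the groups overlap. The TRiC mean also leaves out CCT6A, which differed by -0.91. HSPD1 and HSPE1 together differed by -0.70, and HSPA9 by -0.33 on its leading probe set and -0.50 with its 3 probe sets averaged. With averaged probe sets the mitochondrial mean differed by -0.63 and the TRiC mean by -0.34.

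**Figure D3:**
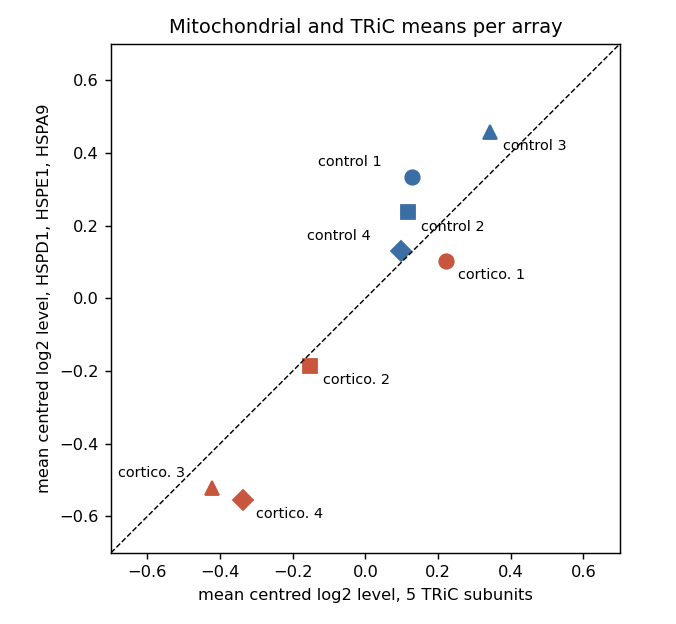
Mean centred log2 level of HSPD1, HSPE1 and HSPA9 (vertical) against that of the 5 TRiC subunits (horizontal), 1 point per array, controls in blue and corticosteroid in red; the dashed line marks equal values. Control arrays lie above the line and corticosteroid arrays below it, by 0.03 to 0.22 log2 units, and corticosteroid arrays 3 and 4 are lowest on both axes. The separation by the line depends on HSPD1.

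HSPD1 was set against each other member after its gap was seen to be the widest, so its place below them was fixed by that choice and is a description. The within-array differences of the log2 levels were compared between the groups. In 7 comparisons 0 passed after Benjamini-Hochberg adjustment, with a smallest adjusted p of 0.1. With 4 against 4 arrays, any could pass only if most of the 7 reached the smallest possible p, so this count decides little. The exact two-sided permutation p was 0.0286, the smallest that 4 against 4 arrays can give, for HSPD1 against TCP1, where the HSPD1 difference minus the TCP1 difference was -0.77, and for HSPD1 against CCT4 (-0.77). It was 0.0571 against HSPE1 (-0.42), 0.0857 against both CCT2 (-0.55) and CCT7 (-0.57), 0.143 against HSPA9 (-0.58) and 0.371 against CCT8 (-0.19).

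The order of the corticosteroid arrays differed between genes. Corticosteroid array 1 was the highest of its group for 7 of the 8 members, all but HSPE1, and lay at or above the lowest control for 5 of them. Corticosteroid array 3 was the lowest of all 8 arrays for HSPD1, HSPE1, CCT4 and CCT7. Corticosteroid array 4 was the lowest for the other 4 members, HSPA9, TCP1, CCT2 and CCT8. Among controls, array 3 was the highest for 5 of 8 members.

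Once the group means were removed, most members varied together over the 8 arrays. HSPD1 and HSPE1 had a Pearson r of 0.879, the highest between mitochondrial members, while HSPA9 had 0.207 with HSPD1 and -0.0623 with HSPE1. On its leading probe set HSPA9 was closer to CCT2 (0.723), CCT8 (0.614), TCP1 (0.581) and CCT4 (0.534), but not to CCT7 (-0.154). The highest value of all was 0.919, between CCT2 and CCT8. CCT7 stood apart from the other subunits, with 0.254 to 0.446, and was closer to HSPE1 (0.671). The median was 0.578 over the 10 pairs of TRiC subunits and 0.614 over the 15 pairs of a mitochondrial member with a TRiC subunit, against 0.000882 over all pairs of the genes tested. These values describe 8 arrays, and what part their processing had in them was not tested. They rest on the re-assigned rows for HSPD1, HSPE1, CCT2 and CCT7.

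**Figure D4:**
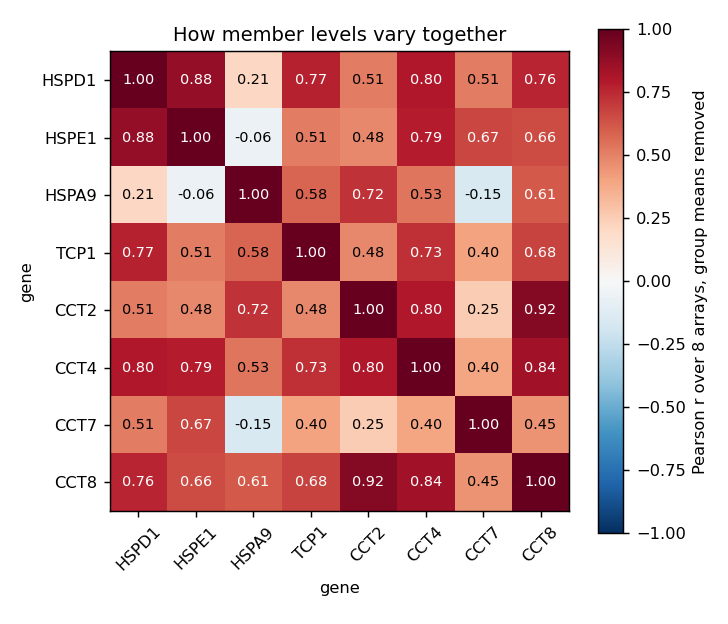
Pearson r between the log2 levels of each pair of members over the 8 arrays after subtracting each group's mean; red is positive and blue negative. HSPD1 and HSPE1 form 1 close pair (0.88) and CCT2 and CCT8 another (0.92), and HSPA9 is near 0 with HSPE1 (-0.06) and CCT7 (-0.15).

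By the same measure, the genes whose pattern was most like that of HSPD1 among 5405 others were DNAJB4 (r = 0.945), an HSP40 co-chaperone, HSPH1 (0.942), the HSP110 partner of HSP70, C2H11orf98 (0.939), the splicing factor SRSF7 (0.932) and HSP70.2 (0.929), an HSP70 of the cytosol. HSPE1 ranked 19, CCT4 54, TCP1 79, CCT8 87, CCT7 566, CCT2 580 and HSPA9 1725 in this order. CCT6A ranked 12. The genes from DNAJB4 to HSP70.2 were picked as the highest of 5405 values, each over 8 arrays with the group means removed. How many genes would reach such values, or that of HSPE1, by chance was not tested, so the order is a description. The rows of DNAJB4, C2H11orf98 and SRSF7 were not moved by the re-assignment. HSPH1 stood at 11.28, 10.72, 11.999 and 9.99 in controls and at 10.84, 10.65, 7.93 and 7.79 with corticosteroid, and differed by -1.70 (SE 0.76, limma adjusted p = 0.524). Its corticosteroid arrays 3 and 4 lay far below the other 6. SRSF7 differed by -1.19 (SE 0.38, adjusted p = 0.479 in limma) and DNAJB4 by -0.29 (SE 0.29, adjusted p = 0.732), with corticosteroid array 3 the lowest of all arrays for both.

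The partners of TRiC had differences on both sides of 0. Of 13 listed cofactors 8 were tested, 6 had higher means with corticosteroid and 2 lower, and the median difference was 0.08. PFDN1, a prefoldin subunit that hands actin and tubulin to TRiC, was the only one at an unadjusted p under 0.05 in limma. It read 10.48, 9.59, 10.09 and 10.12 in controls and 10.39, 10.67, 10.60 and 11.11 with corticosteroid, with control array 1 above corticosteroid array 1. The difference was 0.62 (SE 0.23, limma adjusted p = 0.479), and 0.32 without control array 2 and corticosteroid array 4. PFDN5, another prefoldin subunit, was higher on every corticosteroid array than on any control array and differed by 0.32 (SE 0.20, limma adjusted p = 0.601), and by 0.16 without corticosteroid replicate 4.

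Of 19 actins and tubulins, the main clients of TRiC, 8 were tested. The median difference was -0.31, with 6 lower means, 2 higher and 1 at an unadjusted p under 0.05. Without control replicate 2 the median was -0.10, with 4 lower means, 4 higher and 0 at an unadjusted p under 0.05. Beta-actin (ACTB) differed by -0.93 (SE 0.41, limma adjusted p = 0.524). It read 11.13, 13.08, 12.003 and 11.10 in controls and 11.18, 11.02, 10.42 and 10.99 with corticosteroid, so control array 2 stood high, and without it the difference was -0.51. Cardiac actin (ACTC1) differed by -0.94 (SE 0.48, limma adjusted p = 0.552) and the alpha-tubulin TUBA1B by -0.69 (SE 0.47, adjusted p = 0.624). Both were also highest on control array 2, and without it ACTC1 differed by -0.49 and TUBA1B by -0.22. TUBB4B, a beta-tubulin, stood at 10.33, 10.26, 10.34 and 10.24 in controls and at 10.62, 10.35, 9.05 and 9.96 with corticosteroid, lowest on the array where CCT4 and CCT7 were lowest. It differed by -0.30, and by 0.02 without corticosteroid replicate 3.

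Genes that work with HSPA9 and HSPD1 inside mitochondria had differences on both sides of 0. Of 6 tested partners of mitochondrial HSP70, 3 had lower and 3 higher means, with a median difference of 0.03. TRAP1, the mitochondrial HSP90, was higher on all corticosteroid arrays (8.32, 8.29, 8.28 and 8.65) than on all controls (7.51, 8.18, 7.999 and 7.75). It differed by 0.52 (SE 0.20, limma adjusted p = 0.482). The nucleotide exchange factor GRPEL1 differed by 0.14 (SE 0.25) and the J-protein DNAJA3 by -0.32 (SE 0.22). Among 18 tested import genes the median was -0.05, with 10 lower and 8 higher means. Without control array 2 and corticosteroid array 4 the counts were 13 and 5, with a median of -0.11. Without control replicate 4 they were 8 and 10. TIMM8A, a small carrier of the intermembrane space, was the only one at an unadjusted p under 0.05, at -0.83 (SE 0.27, limma adjusted p = 0.479). The related TIMM13 differed by -0.53 (SE 0.26), and TIMM50, a receptor of the inner membrane translocase, by 0.38 (SE 0.20) and by 0.21 without corticosteroid replicate 4. The 4 tested proteases had a median of 0.17, and the matrix protease LONP1 differed by 0.20 (SE 0.17).

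The 6 tested regulators of the stress genes differed by -0.12 to 0.62. For all but CEBPB the SE was larger than the difference, so whether their levels changed is not settled. HSF1, the main heat shock transcription factor, stood at 8.94 ± 0.25 (SD, n = 4) in controls and 8.96 ± 0.19 (SD, n = 4) with corticosteroid, a difference of 0.02 (SE 0.19, 95% interval -0.41 to 0.45, limma adjusted p = 0.981). HSF2, a related factor, differed by -0.12 (SE 0.35), DDIT3 by 0.13 (SE 0.38) and ATF4 by -0.05 (SE 0.13), the last pair being transcription factors of the integrated stress response. CEBPB, a transcription factor that glucocorticoids induce, differed by 0.62 (SE 0.27, limma adjusted p = 0.524). It was high on corticosteroid arrays 1 and 2 (12.01 and 12.16) and lower on arrays 3 and 4 (11.24 and 10.91). On its leading probe set every chaperonin member was lowest on corticosteroid array 3 or 4, and a link with CEBPB was not tested.

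Genes that track the amount of mitochondria had differences on both sides of 0. Of 8 tested, 4 had lower and 4 higher means, with a median difference of -0.04. The electron carrier cytochrome c (CYCS) had the smallest p, at 10.42, 10.37, 10.38 and 10.55 in controls and 9.98, 10.003, 9.69 and 9.58 with corticosteroid, with no overlap. It differed by -0.62 (SE 0.16, limma adjusted p = 0.469). The outer membrane channels VDAC2 and VDAC3 differed by -0.16 (SE 0.13) and 0.26 (SE 0.19), and TFAM, which packs mitochondrial DNA, by -0.30 (SE 0.24). None of the genes in these lists passed over all probe sets.

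**Figure D5:**
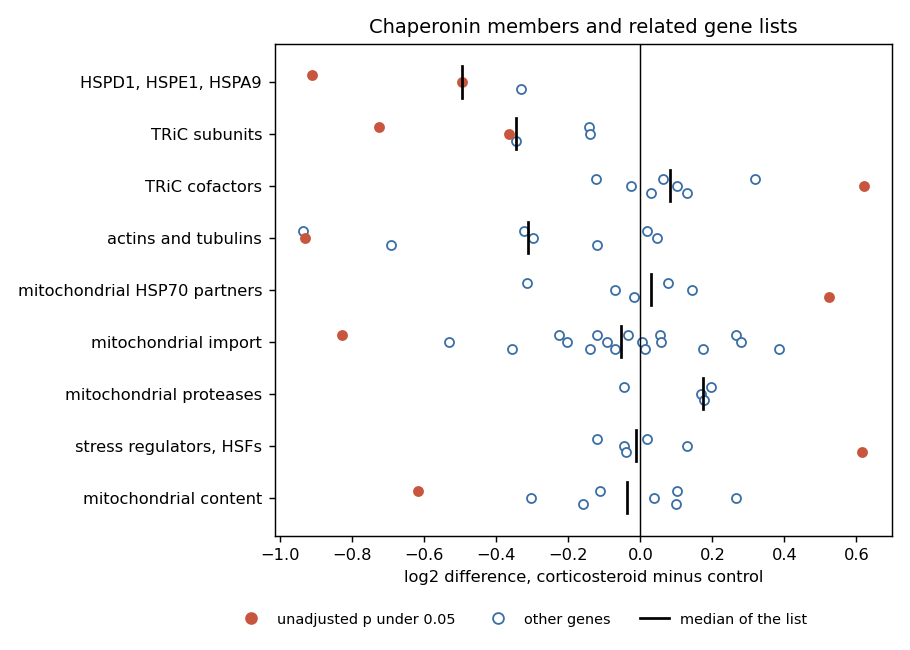
Log2 difference (corticosteroid minus control) of each tested gene in the 2 sets of members and 7 related lists, with red points for an unadjusted p under 0.05 in limma and black bars for the median of a list. The members lie below 0 throughout (medians -0.49 and -0.35), actins and tubulins have a median of -0.31 (-0.10 without control replicate 2), and the other lists hold genes on both sides of 0.

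No marker of fibre type or of other cells passed over all probe sets. Levels of some moved with the groups, and their part in the chaperonin differences was not tested. Slow myosin (MYH7) was lower on every corticosteroid array, at -1.17 (SE 0.32), and fast troponin T (TNNT3) higher on every one, at 0.66 (SE 0.21), both with limma adjusted p-values of 0.469 or more. All 6 tested macrophage markers of the 10 listed had lower means, 0 of them at an unadjusted p under 0.05. Without control replicate 2 the count was 4 lower and 2 higher (CD14 at 0.09 and MRC1 at 0.08), with a median of -0.11 in place of -0.48. Their summed linear level was 804.5 to 2879 in controls and 525.4 to 1047 with corticosteroid, with AIF1 at 9.62 on control array 2 and at 6.22 to 6.67 on the other controls. Haemoglobin beta (HBB), a marker of blood, was lower on every corticosteroid array (-0.55, SE 0.22), and the 2 measured red cell markers summed to 282.3 to 679.6 in controls and 179.1 to 290.9 with corticosteroid. The summed levels of the 7 measured endothelial markers overlapped, at 1865 to 2158 in controls and 1882 to 2410 with corticosteroid. So did those of 4 measured fibroblast markers (1974 to 5261 and 2277 to 3914) and 5 adipocyte markers (2711 to 9727 and 1921 to 10180). Without control array 2, which stood high for macrophage genes and actin, HSPD1 differed by -0.87, HSPE1 by -0.51, CCT8 by -0.76 and CCT2 by -0.43. In that setting HSPA9 differed by -0.41, CCT7 by -0.31, CCT4 by -0.20 and TCP1 by -0.12.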

How the data were processed

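Total RNA (3 µg) from biceps femoris was hybridised to an Affymetrix porcine array, 1 array per sample, per the labels' protocols. The authors deposited log2 expression levels per probe set. MAS5 is named in the submitters' processing notes, and no source used here gives the scaling between arrays. The corticosteroid columns were re-assigned to probe IDs sorted as text with full stops ignored (0 tied IDs), an order found from the values. Across probe sets, over the moved rows the group means correlated with r = 0.0997 as deposited and 0.989 afterwards, and over the rows not moved with 0.989. The re-assigned rows are the main values and the rows as deposited an alternative. Names come from the platform annotation, in which 10069 probe sets have 1 symbol, 198 several (left unnamed) and 13732 none. The gene IDs of all 8 members were found in the current porcine table (Sscrofa11.1), from which no coordinates were taken, since the array files name no build. No sequences are shown.

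The groups were tested in R 4.3.3 using lmFit and eBayes (intensity trend, no block) of limma 3.58.1. The fit covered the 14361 of 23935 non-reporter probe sets above the 40th percentile of the mean over the 8 arrays, with Benjamini-Hochberg adjustment over all of them at 0.05. It was tested on simulated data. Alternatives were a replicate block, quantile or median scaling, no filter or one at the 60th percentile, 16 added before log2, no trend, array weights, averaged probe sets and arrays left out. The comparison of HSPD1 with each other member, and the lists without single arrays, were chosen after seeing the data. The probe set with the highest mean leads its gene. Named genes are all members, up to 4 of smallest p in each other list, CCT6A, HSF1 and the 5 genes most like HSPD1. The members and lists were chosen with earlier results of these data known. The number of arrays limits the precision. Python 3.11.15 with numpy 2.4.6 and pandas 2.3.3 made the tables.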

Additional observations from a re-analysis of the deposited data

Results flagged for a closer look

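The mean centred log2 level of the 5 TRiC subunits was 0.34 on control array 3 and 0.10 to 0.13 on the other control arrays. The gap to the nearest of them took up 0.869 of the range of the group, above Dixon's 95% critical value for 4 samples. It was the 1 group with such an array among 28 examined, and chance gives about 1 in 20. Without control replicate 3 the TRiC mean differed between groups by -0.29 and the mitochondrial mean by -0.52, against -0.34 and -0.58 with all arrays.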

How the results depend on the processing

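Under the 18 alternatives other than the rows as deposited, all 144 values of the 8 members stayed below 0 and 0 had an adjusted p under 0.05 in limma. With the rows as deposited the fit called 5454 probe sets (6101 at an unadjusted p under 0.05) and 4 members, and the mean difference was -4.82 for the mitochondrial members and -1.94 for TRiC, -2.88 apart. HSPD1 then differed by -7.88, HSPE1 by -6.25, CCT2 by -6.98 and CCT7 by -1.68, and the values of HSPA9, TCP1, CCT4 and CCT8 did not move. The differences therefore rest, for 4 members, on a row order found from the data. Without a filter 2160 probe sets had an unadjusted p under 0.05, since more were tested, against 1363. Leaving out single arrays gave 0 to 1 calls at an adjusted p under 0.05, 892 to 1783 at an unadjusted p under 0.05 and 2 to 6 members. Without control array 2 and corticosteroid array 4 together the latter was 2. The cause of these moves was not tested. With the replicate number as a block, 0 probe sets were called, 1332 had an unadjusted p under 0.05 (3 members), and HSPD1 had an adjusted p of 0.532. The deviations of same-numbered arrays correlated with -0.246, 0.109, 0.105 and 0.0535, so the numbers were not taken to pair the samples, and not every array correlated best with its own number.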
